A study of Homo sapiens with 12 samples.

Results

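The MAPK phosphatases are a family of dual-specificity phosphatases, and 10 of their genes were followed here: DUSP1, DUSP2, DUSP4, DUSP5, DUSP6, DUSP7, DUSP8, DUSP9, DUSP10 and DUSP16. They were taken by symbol from the 60675 genes of the count tables, and DUSP3, an atypical dual-specificity phosphatase, is not among them. The cells were A375, an established human melanoma line, and A375/211, its derivative that overexpresses MIR211, called the MIR211 line below. Total RNA was sequenced from 2 libraries per line (replicates a and b) with no bromouridine. BRIC-seq, in which RNA made in the presence of 5-bromouridine is pulled down during a chase, was run on both lines after 24 h of labelling, with a single library for each line at 0 h, 1 h, 3 h and 6 h after the label was removed. Nothing in the labels ties a library to a separate culture, so the spread behind the p-values is that among these libraries and may be technical. With a single library per time, the spread behind a chase slope is how far libraries lie from a straight line in log2 over time. MIR211 expression was carried by a single derived line, and its effect cannot be told apart from any other difference between the lines.

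MAPK phosphatases remove the activating phosphates from the tyrosine and threonine of ERK, JNK and p38. Many of their genes are themselves switched on by ERK signalling, which makes the family a negative feedback loop of the pathway, and A375 carries a BRAF mutation that keeps ERK signalling on. DUSP1, DUSP2, DUSP4 and DUSP5 encode inducible nuclear enzymes, DUSP6, DUSP7 and DUSP9 encode cytoplasmic enzymes that prefer ERK, and DUSP8, DUSP10 and DUSP16 encode enzymes that prefer JNK and p38. Transcripts of immediate early genes of this kind are often short-lived, and AU-rich elements in the 3′ UTR are a known mark of such transcripts.

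The microRNA at issue and the sites that match it are shown first, because MIR211 expression is what the labels give as the difference between the 2 lines. No action of miR-211 on these genes was tested. The mature sequences are from RefSeq on GRCh38.p14, with the seed (bases 2 to 8) in capitals. miR-211-5p lies at chr15:31065095-31065116 on the minus strand, and miR-204-5p, which has the same seed, lies at chr9:70810031-70810052 on the minus strand.
hsa-miR-211-5p: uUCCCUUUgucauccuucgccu
hsa-miR-204-5p: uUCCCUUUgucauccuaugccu
The 3′ UTR of 1 GENCODE 44 transcript per gene was searched on the mRNA strand for AAAGGGA, the 7 letters that pair with this seed. Of all 19195 3′ UTRs searched, 17.6% held it. Among the family, DUSP4 held 3 matches in 3962 nt, DUSP6 held 1 in 2019 nt, DUSP16 held 1 in 3551 nt and the other 7 held none. Of 3′ UTRs between 0.8 and 1.25 times as long as that of DUSP4, 38.1% held a match and 1.5% held at least as many. The like-length shares with a match were 22.0% for DUSP6 and 36.6% for DUSP16. The matches in DUSP6 (chr12:89348659-89348681, GRCh38, minus strand) and DUSP16 (chr12:12473486-12473508, GRCh38, minus strand) read as follows, 5′ to 3′, with the match in capitals.
DUSP6: aattatccAAAGGGAgaaagagc
DUSP16: agaggaatAAAGGGAattagaat

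AU-rich letters were unevenly spread over the family. The pentamer ATTTA occurred in 68.7% of all 3′ UTRs, and the nonamer TTATTTATT, which contains it, in 8.6%. DUSP1, the founding member of the family and an immediate early gene, held 4 pentamers and 2 nonamers in 666 nt, and 0.7% of 3′ UTRs of like length held at least as many nonamers. DUSP8 held 4 pentamers and 1 nonamer, and DUSP4 held 6 pentamers and 1 nonamer. DUSP16 held 8 pentamers, DUSP2 and DUSP10 3 each, and DUSP6 and DUSP9 1 each, all without a nonamer. DUSP5 and DUSP7 held neither. Such counts are common at these lengths: 51.1% of like-length 3′ UTRs held as many pentamers as DUSP16 and 69.5% as many as DUSP4, and 18.1% held a nonamer at the length of DUSP4. The nonamers of DUSP1 (chr5:172768645-172768669 and chr5:172768377-172768401) and of DUSP8 (chr11:1556376-1556400), all on the minus strand of GRCh38, are shown with the nonamer in capitals because DUSP1 stood out in the labelled fraction. A match describes the letters only, not a working element.
DUSP1, first: gctggtccTTATTTATTtaacttca
DUSP1, second: aatataccTTATTTATTtttgtgta
DUSP8: tcgattttTTATTTATTtaagctgt

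The depth of the libraries sets what can be seen of these genes. Total RNA libraries held between 20847481 and 34130525 counts and BRIC-seq libraries between 2671651 and 7279038. Values are given as CPM, counts relative to the size of the library after scaling with edgeR's TMM factors. In the labelled libraries the mitochondrial MT-RNR2 took 7.71% of A375 counts and 7.38% of MIR211 counts at 0 h, and 26.9% and 26.4% at 6 h. TMM sets the typical gene near no change, so a labelled transcript that falls has fallen relative to the other labelled transcripts. The MIR211 gene had 36 and 18 counts in the MIR211 line and 0 in both A375 libraries, and 9, 11, 2 and 3 counts against 0 throughout A375 in BRIC-seq. All 9 melanocyte markers had counts in total RNA, with summed levels of 495 to 501 CPM (A375) and 395 to 435 CPM (MIR211 line), but TYR and MLANA were close to 0 there and TYR was at 0 in every labelled library. The sums hide opposite shifts in total RNA. MITF was at 253 and 244 CPM in A375 and at 38.8 and 49.0 CPM in the MIR211 line (edgeR adjusted p 0.0448). S100B was at 32.6 and 29.0 CPM in A375 and at 94.47 and 99.99 CPM in the MIR211 line. Of the 7 markers tested there, 3 were higher in the MIR211 line.

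Per kilobase of transcript, the family spanned a wide range in total RNA, with DUSP6 highest in A375. In A375 the order was DUSP6 (86.1 CPM per kb), DUSP10 (53.6), DUSP4 (38.04), DUSP1 (26.0), DUSP5 (24.0), DUSP2 (6.34), DUSP9 (4.75), DUSP7 (3.35) and DUSP16 (2.02). The libraries of DUSP10 and DUSP4 overlapped, as did those of DUSP1 and DUSP5, so these neighbours have no settled order. In the MIR211 line DUSP4 moved to the top at 88.2 CPM per kb, overlapping DUSP6 at 81.1, which overlapped DUSP10 at 60.1. DUSP16 at 4.59 and DUSP7 at 4.07 also overlapped there. Divided by the union of all annotated exons in place of 1 transcript, DUSP6 stood above DUSP4 and DUSP9 above DUSP7 in the MIR211 line. DUSP8 had no count in either A375 library and 2 counts in 1 MIR211 library, and 3 counts over both A375 libraries, the limit that a count of 0 allows, would be 0.0611 CPM.

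**Figure D1:**
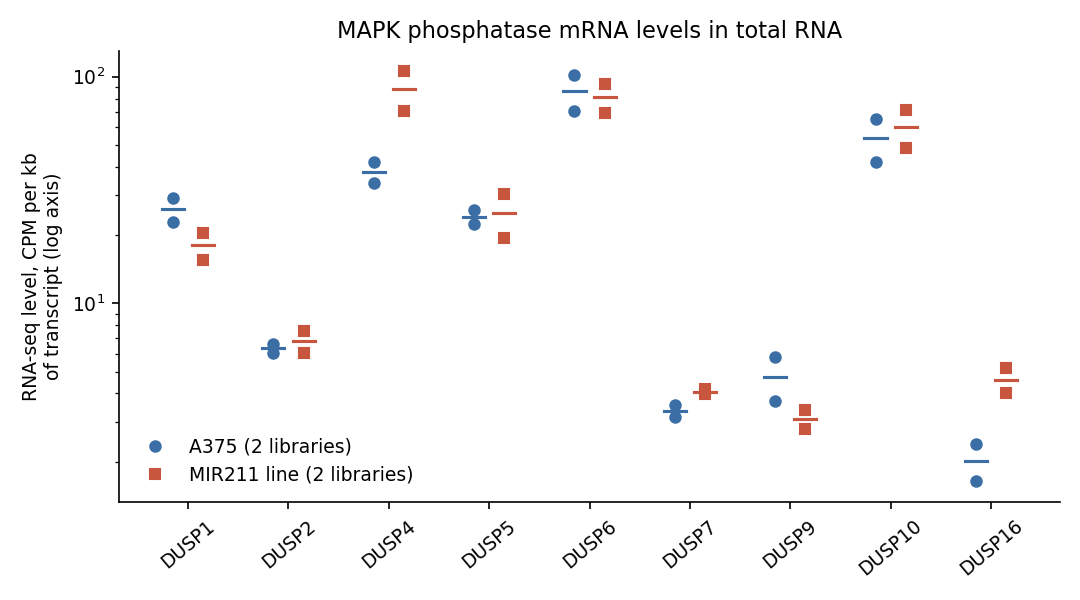
Total RNA level of 9 MAPK phosphatases in CPM per kb of transcript on a log axis, with 1 point per library and a bar at the mean of 2 libraries per line (DUSP8, at or near 0, is not drawn). Both MIR211 libraries lie above both A375 libraries for DUSP4, DUSP16 and, by less, DUSP7, as for 20.7% of all genes tested.

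The question put to total RNA was which phosphatases differ between the lines. DUSP4, a nuclear phosphatase induced by ERK, and DUSP16, a phosphatase of JNK, were measured at 2.32 and 2.28 times their A375 level in the MIR211 line, but no member passed the edgeR test across all genes. In such bulk RNA, fewer cells with a transcript and less of it per cell cannot be told apart. Of the 10 genes, 9 had enough counts to be tested and 0 had an edgeR quasi-likelihood adjusted p under 0.05, where 0.379% of all 19258 genes tested passed. At an unadjusted p under 0.05 it was 2 of the 9, DUSP4 and DUSP16, beside 10.9% of all genes. DESeq2 called both of them higher, beside 1.57% of all genes it tested called higher.

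Among the inducible nuclear members, DUSP4 (ENSG00000120875, chromosome 8) stood at 234 and 188 CPM in A375 and at 587 and 393 CPM in the MIR211 line. The lines did not overlap, which held with the MIR211 line higher for 20.7% of all genes and lower for 20.3%. The log2 difference was 1.21 ± 0.27 (SE; n = 2 per line; 95% interval 0.52 to 1.91), a fold of 2.32, with an edgeR adjusted p of 0.187 and a DESeq2 adjusted p of 0.0025. DUSP1 (ENSG00000120129, chr5:172768096-172771195, GRCh38, minus strand), whose enzyme acts on JNK, p38 and ERK in the nucleus, was at 58.5 and 46.0 CPM in A375 and at 41.2 and 31.4 CPM in the MIR211 line. Both MIR211 libraries lay below both A375 libraries, with a log2 difference of -0.52 ± 0.23 and an edgeR adjusted p of 0.519. DUSP2 and DUSP5, nuclear phosphatases that act chiefly on ERK, overlapped between the lines. DUSP2 was at 10.2 and 11.2 CPM against 12.7 and 10.1 CPM (log2 difference 0.10), and DUSP5 at 63.9 and 55.2 CPM against 75.4 and 48.2 CPM (0.05).

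The cytoplasmic ERK phosphatases were not higher as a group. DUSP6 (ENSG00000139318, chr12:89347235-89352501, GRCh38, minus strand), the feedback phosphatase most often read as a gauge of ERK output, was at 369 and 256 CPM in A375 and at 252 and 336 CPM in the MIR211 line. The libraries interleaved, and the log2 difference of -0.09 ± 0.27 had a 95% interval from -0.78 to 0.61. DUSP7, at 10.6 and 12.0 CPM in A375, was at 14.1 and 13.3 CPM in the MIR211 line, with both MIR211 libraries above both A375 libraries (log2 difference 0.28, edgeR adjusted p 0.713). DUSP9 was at 8.98 and 14.1 CPM against 6.77 and 8.24 CPM, with the MIR211 libraries lower (log2 difference -0.63, edgeR adjusted p 0.553). Such a lack of overlap held for 20.7% of all genes with the MIR211 line higher and for 20.3% with it lower. A lncRNA on the opposite strand, ENSG00000274021, shares 1105 exonic bases with DUSP6. Over all libraries its counts came to 0.31% of those of DUSP6 in total RNA and 7.37% in BRIC-seq. Single BRIC-seq libraries held 0 to 23 counts of the lncRNA, and in A375 DUSP6 had 10 counts at 3 h and 26 at 6 h. Reads of the pair cannot be told apart unless the counting used strand, and the part of the lncRNA in the late DUSP6 counts was not tested.

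Of the JNK and p38 phosphatases, DUSP16 (ENSG00000111266, chr12:12473282-12562863, GRCh38, minus strand) was at 16.0 and 10.9 CPM in A375 and at 34.5 and 26.7 CPM in the MIR211 line. The lines did not overlap, which held with the MIR211 line higher for 20.7% of all genes. The log2 difference was 1.19 ± 0.27 (95% interval 0.48 to 1.90), a fold of 2.28, with an edgeR adjusted p of 0.20 and a DESeq2 adjusted p of 0.0135. DUSP10 (ENSG00000143507), at 169 and 109 CPM in A375 and 185 and 126 CPM in the MIR211 line, overlapped between them (log2 difference 0.16 ± 0.31). Over the 9 tested members the median difference was 0.10 beside -0.0035 for all genes. By role the medians were 0.08 for the inducible nuclear genes, -0.09 for the cytoplasmic ones and 0.68 for the pair tested among the JNK and p38 phosphatases.

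The chase asked how fast labelled transcripts are lost. Labelled DUSP4, DUSP5, DUSP6, DUSP7, DUSP10 and DUSP16 all fell, by 0.37 to 0.79 log2 units per hour relative to the other labelled transcripts. These 6 of the 10 genes had enough counts to be tested, and all 6 passed with a negative slope common to both lines, where 34.4% of the 13703 genes tested passed as falling and 29.9% as rising. Their median slope was -0.64 beside -0.04 for all genes tested. The other 4 genes were too rare in the labelled fraction: no library held more than 9 counts of DUSP1, 8 of DUSP2 or 14 of DUSP9, and DUSP8 had 0 counts in all 8. A count of 0 over the 4 libraries of a line allows up to 0.146 CPM of DUSP8 (A375) or 0.16 CPM (MIR211 line).

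How many genes fall depends on what is held constant, whereas these 6 fell under each scaling tried. Of all calls on the common slope, 46.5% were rising with TMM, 20.6% with total counts, 27.5% with total counts outside the mitochondrial genome and 0.102% with 9 glycolytic mRNAs held constant, which moved the median of all genes by -0.16, -0.12 and -0.46. All 6 members passed as falling under each of these scalings. Of the 13703 genes tested, 4715 passed as falling with TMM and 7226 with total counts. The number was 6560 with total counts outside the mitochondrial genome and 11781 with glycolytic mRNAs held constant. Relative to TMM, the total-count and glycolytic scalings lower the slopes, so they could not have turned a negative slope positive. RLE scaling moved the median of all genes the other way, by only 0.026, and all 6 members passed as falling. The absolute size of these slopes is not fixed by these libraries.

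Labelled DUSP4 was at 165, 164, 20.4 and 7.56 CPM at 0, 1, 3 and 6 h in A375, and at 343, 337, 33.3 and 20.9 CPM in the MIR211 line. Both series were flat over the first hour and then dropped steeply, and the MIR211 line was higher at every time. The common slope was -0.79 ± 0.10 log2 CPM per hour (SE, 8 libraries; edgeR adjusted p 0.000292), lower than that of all but 1.19% of genes tested. Labelled DUSP5 fell from 9.04 CPM through 5.02 and 1.91 to 0.597 CPM in A375, while the MIR211 line went from 12.1 CPM through 4.91 and 1.02 to 1.46 CPM. It was already lower at 1 h in both lines, and it rested on only 3 to 45 counts per library. Its common slope was -0.61 ± 0.10 (edgeR adjusted p 0.00105).

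Labelled DUSP6 was at 81.1, 57.6, 1.37 and 5.17 CPM in A375 and at 61.1, 36.9, 4.44 and 3.64 CPM in the MIR211 line. It was lower at 1 h in both lines and lowest at 3 h in A375, where only 10 counts were left. Its common slope was -0.75 ± 0.16 (edgeR adjusted p 0.00381), with the largest SE of the 6. Labelled DUSP7, whose enzyme acts on ERK in the cytoplasm, was at 17.8, 19.3, 5.33 and 2.79 CPM in A375 and at 6.19, 14.1, 3.76 and 4.13 CPM in the MIR211 line. The fall was orderly in A375, while in the MIR211 line the 0 h library, with 23 counts, stood below the 1 h library. Its common slope was the shallowest, -0.37 ± 0.10 (edgeR adjusted p 0.0117), and without the A375 6 h library it was -0.30 and no longer passed (edgeR adjusted p 0.0906).

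Labelled DUSP10 was at 96.2, 96.9, 16.7 and 10.4 CPM in A375 and at 145, 128, 16.2 and 8.25 CPM in the MIR211 line. Like DUSP4 it changed little in the first hour and fell most between 1 and 3 h, with a common slope of -0.68 ± 0.09 (edgeR adjusted p 0.000372). Labelled DUSP16 was at 25.7, 26.8, 11.5 and 4.78 CPM in A375 and at 35.8, 36.3, 16.4 and 4.37 CPM in the MIR211 line. It was level over the first hour and fell in each later step, with a common slope of -0.48 ± 0.05 (edgeR adjusted p 0.000128).

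**Figure D2:**
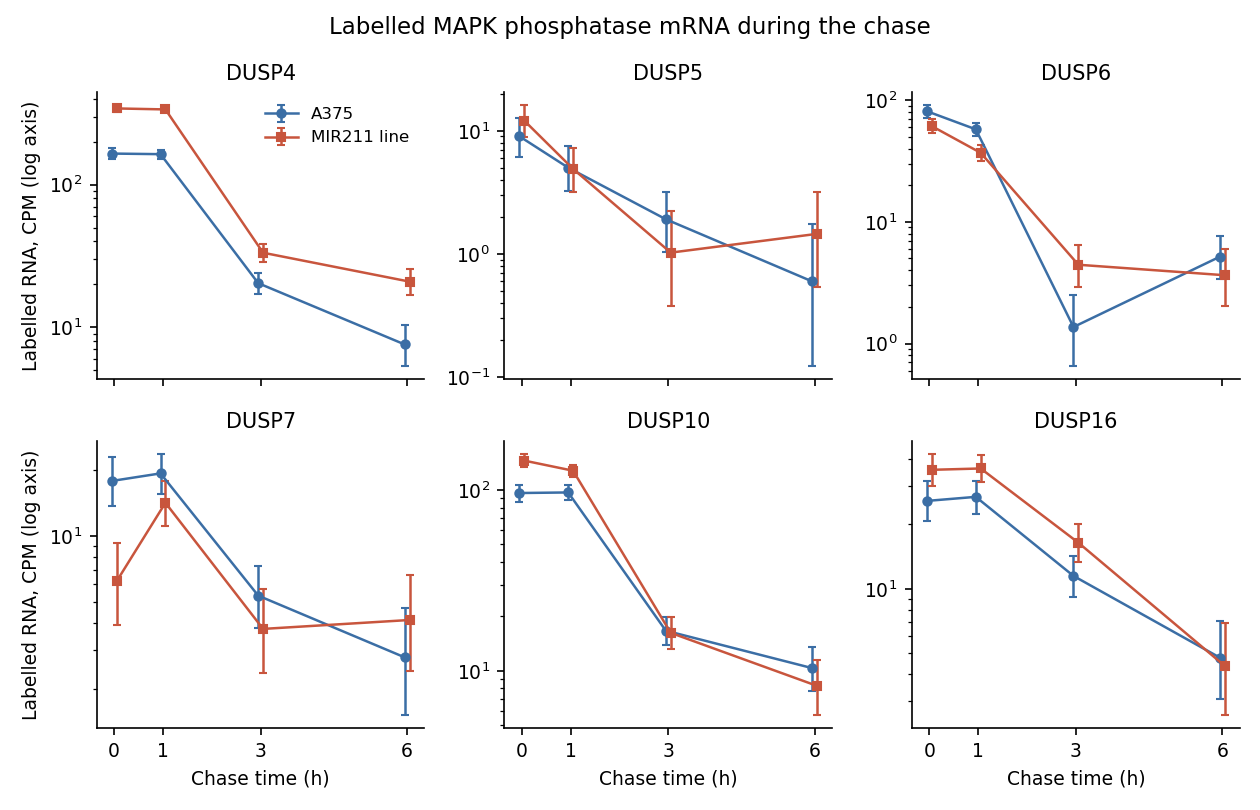
Labelled RNA of 6 MAPK phosphatases in CPM on a log axis against chase time in hours, with 1 library per point, lines joining the libraries of a cell line, and bars for the exact 95% Poisson interval of the count. DUSP4 and DUSP16 are level from 0 to 1 h and drop later, as does DUSP10 in A375, DUSP5 and DUSP6 are lower at 1 h in both lines, and DUSP4 is higher in the MIR211 line at every time.

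The inducible nuclear members were not set apart from the others by their slope. DUSP4 and DUSP5 had slopes of -0.79 and -0.61, with a median of -0.70. The other 4 ranged from -0.75 for DUSP6 to -0.37 for DUSP7, with a median of -0.58, so the ranges overlapped. The nuclear genes DUSP1 and DUSP2 could not be placed, since each had 8 labelled counts at 0 h in A375 and none at 6 h.

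From 0 to 1 h, labelled DUSP5 went to 0.556 of its level in A375 (exact 95% interval of the count ratio 0.312 to 0.979) and to 0.405 in the MIR211 line (0.238 to 0.675), and DUSP6 went to 0.710 (0.599 to 0.842) and 0.604 (0.495 to 0.736). Such intervals lay below 1 in both lines for 6.27% of all genes tested. DUSP4 kept 0.990 of its level in A375 (0.888 to 1.11) and 0.984 in the MIR211 line (0.915 to 1.06), and DUSP16 kept 1.04 (0.790 to 1.39) and 1.01 (0.807 to 1.28). Intervals that included 1 in both lines were found for 51.4% of all genes. DUSP10 kept 1.01 in A375 (0.873 to 1.16) and 0.879 in the MIR211 line (0.783 to 0.987). Labelled DUSP7 was at 1.08 times its level in A375 (0.775 to 1.52) and 2.28 times in the MIR211 line (1.41 to 3.83). These intervals cover counting error only, with no replicate at any time.

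Between 1 and 3 h all 6 fell in both lines by their counting intervals, as did 21.3% of all genes tested. DUSP4 became 8.04 times lower in A375 and 10.1 times lower in the MIR211 line. DUSP10 became 5.81 and 7.88 times lower, and DUSP6 42.1 and 8.32 times lower. The steps of the remaining genes were smaller, at 2.63 and 4.79 times for DUSP5, 3.61 and 3.76 times for DUSP7, and 2.33 and 2.22 times for DUSP16. From 3 to 6 h DUSP4, DUSP10 and DUSP16 fell again in both lines, beside 20.7% of all genes. DUSP6 in A375 went the other way, from 10 to 26 counts, 3.79-fold higher (1.77 to 8.80), which the MIR211 line did not show (0.820, 0.404 to 1.61). Over the whole chase DUSP4 was 21.9 and 16.4 times lower at 6 h than at 0 h in A375 and the MIR211 line, DUSP6 15.7 and 16.8 times, and DUSP10 9.30 and 17.6 times. DUSP5 was 15.1 and 8.32 times lower and DUSP16 5.37 and 8.20 times. DUSP7 was 6.38 times lower in A375, but in the MIR211 line its ratio of 0.666 had an interval that included 1 (0.334 to 1.30).

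Fitted line by line, the slopes showed no difference that the test could detect. In A375 all 6 members passed as falling, beside 24.2% of all genes, from -0.83 ± 0.16 for DUSP4 to -0.44 ± 0.08 for DUSP16. In the MIR211 line 5 passed, beside 21% of all genes, with DUSP10 at -0.76 ± 0.14, DUSP4 at -0.76 ± 0.15, DUSP6 at -0.74 ± 0.26, DUSP5 at -0.56 ± 0.15 and DUSP16 at -0.53 ± 0.08. DUSP6 there had an edgeR adjusted p of 0.0499, at the edge of the threshold, and DUSP7 at -0.23 ± 0.14 did not pass (edgeR adjusted p 0.195). With total counts DUSP7 passed there at -0.41 and with glycolytic mRNAs held constant at -0.69, while DUSP6 lost its call with RLE scaling or without a count filter. Without the 6 h library of a line, 0 members and 0 of all genes passed in that line, but the slopes of the 6 members stayed negative. In A375 they then ran from -1.98 for DUSP6 and -1.08 for DUSP4 to -0.41 for DUSP16.

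For the difference of slopes, 0 of the 6 members passed, beside 0% of all genes with edgeR (3.85% at an unadjusted p under 0.05) and 0.0509% with DESeq2. The 95% intervals were wide. For DUSP7 the MIR211 slope was less negative by 0.27 (-0.18 to 0.72), and for DUSP10 more negative, at -0.16 (-0.61 to 0.29). The intervals ran from -0.45 to 0.59 for DUSP4, from -0.41 to 0.61 for DUSP5, from -0.82 to 0.83 for DUSP6 and from -0.35 to 0.17 for DUSP16. At this depth and with 1 library per time, a difference as large as the slope of DUSP6 itself would have stayed inside its interval.

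**Figure D3:**
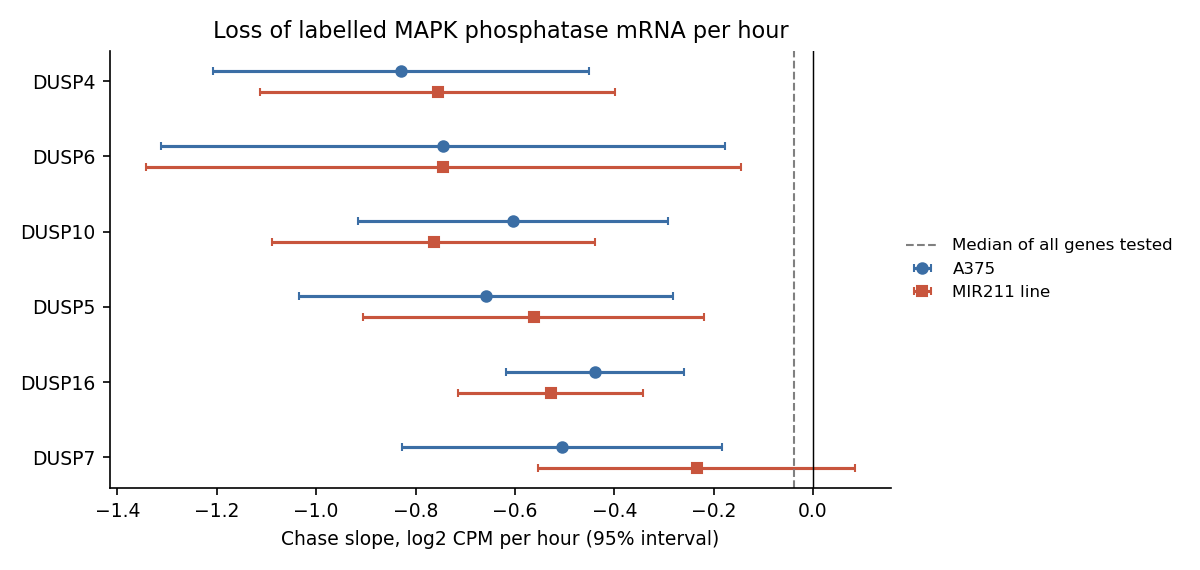
Chase slope in log2 CPM per hour for 6 MAPK phosphatases, fitted separately for A375 and the MIR211 line, with 95% intervals, a dashed line at the median common slope of all genes tested (-0.04) and a solid line at 0. All points lie left of the dashed line, the intervals of the lines overlap for every gene, and that of DUSP7 in the MIR211 line reaches past 0.

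The level of labelled RNA was then compared between the lines. With the chase times matched, labelled DUSP4 was higher in the MIR211 line by a log2 difference of 1.04 ± 0.12 (SE, 4 times per line; 95% interval 0.74 to 1.34; edgeR adjusted p 0.00253), a fold of 2.06. The 4 chase times stood in for replicates here, so the SE and p-value describe how constant the difference was along the chase. DUSP4 was the single member of 6 tested that passed, beside 25.9% of all genes in either direction and 13.6% as higher. The MIR211 line was 2.07, 2.06, 1.64 and 2.76 times higher at 0, 1, 3 and 6 h, and each counting interval lay above 1. Being higher at all 4 times held for 22.9% of all genes. The call and its direction held under every scaling, filter and left-out library tried.

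DUSP16, at 2.28 times the A375 level in total RNA, had a log2 difference of 0.38 ± 0.15 in labelled RNA and did not pass (edgeR adjusted p 0.123). It stood at 1.40, 1.36, 1.43 and 0.915 times the A375 level at the 4 times. For DUSP10 the ratio was 1.51 at 0 h, 1.32 at 1 h, 0.973 at 3 h and 0.797 at 6 h, and the matched difference was 0.21 ± 0.17. DUSP5 differed by 0.12 ± 0.33 and DUSP6 by -0.17 ± 0.34, both with libraries on either side. Labelled DUSP7 was lower in the MIR211 line at 0 h (0.348 times, 0.206 to 0.571), and its counting intervals at 1, 3 and 6 h included 1. Its matched difference was -0.55 ± 0.32 (edgeR adjusted p 0.251), and with glycolytic mRNAs held constant it was -0.95 and passed. The signs for DUSP5, DUSP10 and DUSP16 turned negative under that scaling.

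**Figure D4:**
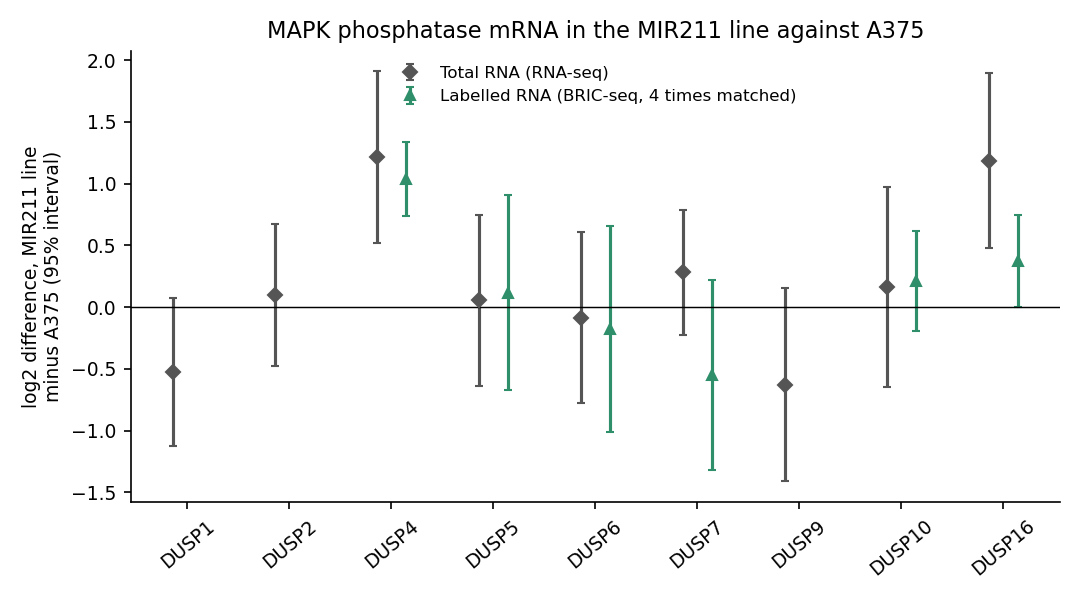
log2 difference between the MIR211 line and A375 for 9 MAPK phosphatases in total RNA (diamonds, 2 libraries per line) and for the 6 tested in labelled RNA (triangles, 4 chase times matched), with 95% intervals. DUSP4 is above 0 in both kinds of RNA, at 1.21 and 1.04, and DUSP16 at 1.19 in total RNA and 0.38 in labelled RNA.

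Other markers moved with the line in the labelled libraries. The summed level of 6 fibroblast markers was 3.98 to 15.7 CPM (A375) and 30.2 to 151 CPM (MIR211 line), that of 6 leukocyte markers 3.21 to 21.1 and 18.5 to 152 CPM, and that of 5 endothelial markers 1.05 to 4.08 and 28.0 to 46.8 CPM. PTPRC and CD3E of the leukocyte list, and CDH5 and VWF of the endothelial list, were at 0 in all 8 labelled libraries, and 1 or 2 of 6 keratinocyte markers had counts. In total RNA the same sums were 28.3 to 64.4 (A375) against 29.7 to 30.7 CPM (MIR211 line) for fibroblast markers. They were 21.6 to 25.5 against 9.95 to 16.9 CPM for leukocyte and 3.82 to 4.47 against 6.35 to 9.50 CPM for endothelial markers. The sums hide opposite shifts: in total RNA COL1A2 differed by -6.50 and DCN by 4.24 on the log2 scale. Of the 5 fibroblast markers tested there, 4 were above 0. In labelled RNA COL1A2 was at 0 in every MIR211 library and DCN in every A375 library. The part of these markers in the labelled difference of DUSP4 was not tested.

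Before the chase, the members differed widely in their labelled level at 0 h relative to their level in total RNA. The labelled CPM at 0 h over the mean CPM in total RNA had a median of 0.754 in A375 and 0.756 in the MIR211 line over 12677 genes. DUSP1 had 52.3 ± 8.86 CPM (SD, n = 2) in total RNA of A375 but 8 counts in labelled RNA, a ratio of 0.0446 (exact Poisson 95% interval of the labelled count 0.0193 to 0.088). In the MIR211 line it had 36.3 ± 6.93 CPM and 9 counts, a ratio of 0.0667 (0.0305 to 0.127). Only 4.07% and 5.43% of genes had a lower ratio, so a transcript in the upper part of the family's order per kb in total RNA was close to absent from the labelled fraction.

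Of the other inducible nuclear members, DUSP2 and DUSP5 were also below the median ratio, as was the cytoplasmic DUSP6, while DUSP4 was near it. DUSP5 had ratios of 0.152 in A375 and 0.196 in the MIR211 line, DUSP2 of 0.218 and 0.0706 (on 8 and 3 counts), and DUSP6 of 0.259 and 0.208. Ratios this low were less rare than that of DUSP1 in A375. The share of genes with a lower ratio ran from 5.83% (DUSP2, MIR211 line) to 22.6% (DUSP6, A375). DUSP9 had 5 counts and a ratio of 0.126 in A375 and 0 counts in the MIR211 line. DUSP4 and DUSP10 lay near the median, with ratios of 0.783 and 0.700 for DUSP4 and of 0.693 and 0.935 for DUSP10. DUSP16 was above it, at 1.91 and 1.17, and DUSP7 was at 1.58 in A375 and 0.452 in the MIR211 line. DUSP5 and DUSP6, with low ratios, were also the genes whose counting intervals at 1 h lay below the 0 h level in both lines. The share of U in the transcript, beside a median of 24.7% over all transcripts, was 20.1% for DUSP9, 20.3% for DUSP2, 22.6% for DUSP7, 23.6% for DUSP5, 23.9% for DUSP1, 24.7% for DUSP4, 25.7% for DUSP16, 26.4% for DUSP10 and 27.7% for DUSP6. The 4 lowest ratios in A375, of DUSP1, DUSP9, DUSP5 and DUSP2, belong to transcripts below that median, as does the high ratio of DUSP7. The next lowest ratio in A375, of DUSP6, belongs to the transcript with the highest share of U. The part of U content in the ratios was not tested. Labelled and total RNA came from cells grown with and without bromouridine and from separate library sets, so the ratio describes these libraries and is not a fraction of molecules.

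**Figure D5:**
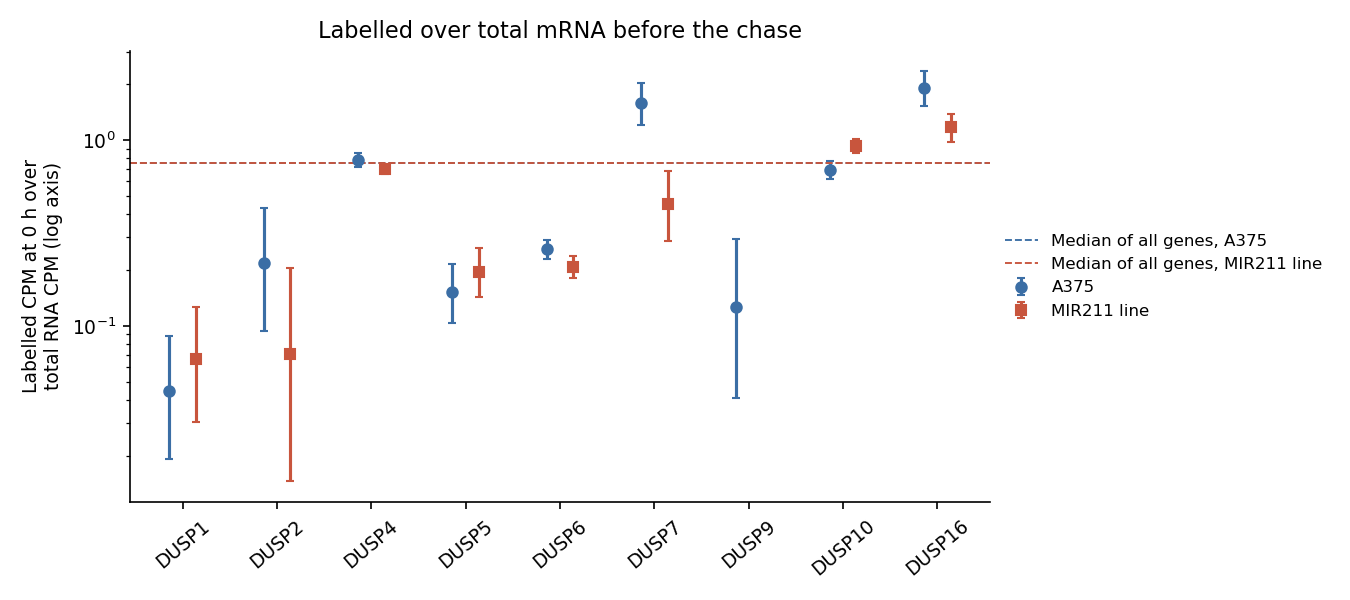
Labelled CPM at 0 h of chase over the mean CPM in total RNA for the MAPK phosphatases on a log axis, with the exact 95% Poisson interval of the labelled count as bars and dashed lines at the medians over all genes (0.754 and 0.756). DUSP1 lies lowest in A375 and is far below the median in both lines, DUSP5 and DUSP6 are below it, and DUSP4 and DUSP10 are close to it (genes with 0 labelled counts are not drawn).

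Across the 8 labelled libraries the levels of the 6 members moved together, which they share with any transcript lost in the chase. Pearson's r of log2(CPM + 1) ran from 0.724 for DUSP5 with DUSP7 to 0.966 for DUSP4 with DUSP10, with chase time, line and depth common to all points. Of 8476 genes, those most like DUSP4 were IRS2, an adaptor of the insulin receptor (r = 0.995), NRIP1, a nuclear receptor corepressor (0.994), and EFNB2, an ephrin ligand (0.992). Most like DUSP6 were BAMBI, a pseudoreceptor of the TGF-beta family (0.993), MSL2 (0.991) and SC4MOP (0.989). Most like DUSP10 were LCORL (0.994), the transcription factor gene POU3F2 (0.994) and MACIR (0.993).

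The family was then set beside other genes of its pathway. Of 28 other genes known to be induced by ERK, 21 were tested in the chase, and 16 fell and 1 rose, with a median slope of -0.40, where 34.4% of all genes fell and 29.9% rose. MYC, a transcription factor, fell by 0.84 log2 units per hour, PHLDA1 by 0.69, and the ERK pathway inhibitors SPRED1 and SPRED2 by 0.48 and 0.45. The median of the 6 phosphatases, -0.64, was lower than that of this list, and the difference was not tested. Of 9 atypical dual-specificity phosphatases tested, 4 fell and none rose, beside 34.4% and 29.9% of all genes, with a median of -0.03. Those that fell were DUSP18 at -0.45, DUSP14 at -0.42, DUSP11 at -0.31 and DUSP3 at -0.26. Of 5 other MAPK phosphatases tested, of the tyrosine and serine/threonine classes, 3 fell, PPM1D at -0.70, PPM1B at -0.37 and PPM1A at -0.34. With glycolytic mRNAs held constant, 21 ERK-induced genes, 9 atypical phosphatases and 5 of these other phosphatases fell and none rose.

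The kinases that these phosphatases act on, or that lie upstream, were spread on both sides. Of 16 ERK cascade genes tested, 7 rose and 3 fell, beside 29.9% and 34.4% of all genes. MAPK3, which encodes ERK1, was at 0.40 and RPS6KA3 at 0.18, with BRAF at -0.26 and SOS1 at -0.28. Of 15 JNK and p38 cascade genes tested, 3 rose and 5 fell, the latter near the 34.4% of all genes, with MAPK9, which encodes JNK2, at 0.23, and MAP3K1 at -0.62, MAPK14, which encodes p38 alpha, at -0.27 and MAP3K7 at -0.25. These counts move with the scaling: with glycolytic mRNAs held constant 13 ERK cascade genes and 14 JNK and p38 cascade genes fell and none rose.

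In total RNA none of the 27 tested ERK-induced genes, 16 ERK cascade genes, 19 JNK and p38 cascade genes, 12 atypical phosphatases or 6 other MAPK phosphatases passed with edgeR, and 6, 1, 3, 1 and 0 of them had an unadjusted p under 0.05, beside 10.9% of all genes. DESeq2 called 3 of the ERK-induced genes higher and 1 atypical phosphatase lower. EPHA2 differed by 1.44 (edgeR adjusted p 0.0606), HBEGF by 1.44, FOSL1 by 1.07 and CCND1 by 0.80, each on the log2 scale, and the median of the ERK-induced list was 0.17. The phosphatase DUSP3 differed by -2.46 (edgeR adjusted p 0.0533) and MAPK14, a target of DUSP1, DUSP10 and DUSP16, by -0.76 (edgeR adjusted p 0.195). In labelled RNA with times matched, 7 of the 21 ERK-induced genes were higher and 4 lower in the MIR211 line, beside 13.6% and 12.3% of all genes.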

How the data were processed

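Total RNA (4 libraries) and bromouridine-labelled RNA (8 libraries) were analysed from 2 deposited tables of whole-number counts per Ensembl gene, which the authors made with HISAT2 2.1.0 and StringTie, per the submitters' processing notes. The notes name hg19 and the series' design text hg38; how the counting treated strand and multiply mapped reads is not given in the sources used here. The BRIC-seq table has 1 row that names no gene, 0.000108% to 0.00122% of counts, which entered neither the library totals nor the tests. The members, gene lists and tests were chosen with earlier results of these data known.

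Genes were filtered with filterByExpr by line, scaled by TMM and tested with edgeR 4.0.16's quasi-likelihood test (limma 3.58.1, R 4.3.3), with Benjamini-Hochberg adjustment over all genes tested and a threshold of 0.05. Total RNA was fitted by line, and the chase by line and hours, by a slope per line, by their difference, and by line with time as a factor. SEs are the size of the log2 value over the square root of F; for the difference of slopes they combine those of both slopes. The main test was run on simulated counts for the total RNA line difference and the common chase slope only. The slopes per line, their difference and the labelled line difference were not checked in this way. DESeq2 1.42.0, other scalings and filters, and left-out libraries were alternatives. Exact intervals of counts cover counting error only.

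All members are named. From each other list up to 4 genes with the smallest p in total RNA and in the chase are named, and for the member with most labelled counts in each role, the 3 genes with the highest Pearson r among genes whose mean log2 CPM was 3 or more. Positions and 3′ UTRs are from GENCODE 44 on GRCh38, matched by gene ID, and 3′ UTRs under 50 nt were not searched. The values of 1 marker of the leukocyte list are not reported here.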

Additional observations from a re-analysis of the deposited data

How the results depend on the processing

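The common chase slope of each of the 6 tested members kept its sign under every alternative run, and the labelled difference of DUSP4 kept its sign and its call. The total RNA differences of DUSP4 and DUSP16 kept their sign. Their calls hung on the test: DESeq2 called 2 members and 679 genes in total RNA, against 0 and 73. Without a count filter 237 genes passed there, and with each library left out in turn between 0 and 15, with the lone library of a line assumed to vary like the other line's. The letters a and b pair no cultures in the labels, and with 2 letters only a correlation of deviations of 0.337 can be given, so the fit with a replicate block is an alternative: it passed 192 genes and 0 members.

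With the row that names no gene held constant, a scaling chosen after seeing the data, 13451 genes passed on the common slope, 12542 on the A375 slope and 13114 on the MIR211 slope. With glycolytic mRNAs held constant, 10409 passed on the A375 slope, 10377 on the MIR211 slope and 5842 on the labelled line difference, with 2 members. That scaling also turned the labelled line difference of DUSP5 to -0.29, of DUSP10 to -0.19 and of DUSP16 to -0.022, and the row that names no gene turned DUSP5 to -0.011 and the first-hour change of DUSP7 in the MIR211 line to -0.09. In the labelled line difference, 52.6% of calls were higher with TMM, 41.6% with total counts and 15.5% with glycolytic mRNAs held constant. For the difference of slopes DESeq2 called 17 genes and the fit without a filter 1. The difference for DUSP6, close to 0, was -0.0052 with DESeq2, -0.026 with total counts, -0.015 without a filter, -0.024 without mitochondrial genes and -0.079 with the row that names no gene. The causes were not tested.

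With a library left out, A375 slopes passed for 0 to 6761 genes and 0 to 6 members, MIR211 slopes for 0 to 5870 genes and 0 to 5 members, and the labelled line difference for 1739 to 2861 genes. The lowest slope counts came without the 6 h library of that line. DUSP6 in the MIR211 line also lost its call without any of 5 other libraries, and DUSP5 there without the 0 h one (-0.37). In A375, DUSP5 (-0.61) and DUSP7 (-0.56) lost theirs without the A375 0 h library, DUSP7 without the 1 h one (-0.45), and DUSP6 without the 0 h or 1 h library of either line (-0.75 to -0.70). The common slope of DUSP7 did not pass on 0 and 6 h alone (-0.24). In total RNA, leaving out a library moved DUSP2 between -0.066 and 0.25, DUSP5 between -0.29 and 0.34, DUSP6 between -0.32 and 0.19 and DUSP10 between -0.13 and 0.51. The difference of slopes ran from -0.39 to 0.33 for DUSP4, -0.51 to 0.29 for DUSP5, -0.53 to 1.24 for DUSP6, -0.52 to 0.14 for DUSP10 and -0.17 to 0.035 for DUSP16, and the labelled line difference from -0.051 to 0.45 for DUSP5 and -0.51 to 0.085 for DUSP6. DUSP1, DUSP2, DUSP8 and DUSP9 are limited by labelled counts, and each chase time by its single library.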
